A study of Homo sapiens with 10 samples.

Results

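The 46 genes described here encode proteins of the cytosolic ribosome, the particle that makes most proteins of the cell, and they were measured in a human liver cancer line with and without sorafenib. They are the genes whose symbol begins with RPL, RPLP or RPS, followed by the number of the protein, and which have a transcript cluster of their own, a transcript cluster being the group of array probes that stands for a gene. They were 46 of the 22392 genes with such a cluster, 27 of the large subunit and 19 of the small subunit. Pseudogenes and the RPS6K kinases were not included, and for a gene with several clusters the one with the highest mean over the 10 arrays was taken. A further 21 ribosomal protein symbols were found only in clusters that name other genes beside them. RPL5, RPL23, RPLP0, RPLP2, RPSA, RPS27A, RPL3, RPL10 and RPL13A are not analysed here.

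Whole-genome Affymetrix arrays were hybridised with total RNA of Huh7 cells, which were established from a human hepatocellular carcinoma, to examine how their transcriptome responds to sorafenib, an inhibitor of RAF and of receptor tyrosine kinases. Untreated Huh7 cells gave 2 arrays (replicates 1 and 3), and the same cells kept in 10 μM sorafenib for 9 h gave another 2 (replicates 5 and 6). A line labelled shRb gave 3 untreated arrays (replicates 7, 8 and 9) and 3 arrays after sorafenib at that dose and time (replicates 10, 11 and 12), and nothing in the labels or the paper says what shRb stands for or how that line was made. The labels give the treatment of the controls as none, so sorafenib cannot be told apart from its vehicle or from handling. They describe each of the treated Huh7 samples as the second replicate, name no cultures and give no array strips, so p-values measure the spread between these samples, and batch and group cannot be told apart.

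The arrays had medians of 3.39 to 3.42 over all 53617 clusters on the deposited log2 scale, and they correlated at 0.984 to 0.990 within a group and 0.975 to 0.987 between groups (Pearson's r over clusters). All 8 hepatocyte-derived markers were measured and 6 of them lay above the 90th percentile of cluster means, 7.19, as did none of 5 fibroblast markers and 2 of 4 leukocyte markers. PTPRC, which defines leukocytes, had a mean of 1.68, and LYZ, the other end of that list, 11.0. The array mean of the fibroblast list ran from 3.77 to 4.09 over all arrays, and that of the leukocyte list was 5.77 to 5.88 in untreated Huh7, 5.87 to 6.15 in treated Huh7, 5.67 to 5.78 in untreated shRb and 5.67 to 5.87 in treated shRb; their part in the results was not tested. RB1, the retinoblastoma gene, was 4.84-fold lower in untreated shRb than in untreated Huh7 (log2 difference -2.28, SE 0.21, adjusted p = 0.00103 from limma, n = 3 and 2).

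A ribosome is built from 4 ribosomal RNAs and a set of proteins needed in fixed proportions. Cells thus make ribosomal proteins in step and degrade those left over. Their output is set mainly at translation. Their mRNAs begin with a cytosine and a run of pyrimidines, the 5′ terminal oligopyrimidine tract, through which mTOR signalling and the RNA-binding protein LARP1 hold back or release their translation, whereas their mRNA levels are known as stable and are often used as a reference. Arrays such as these measure the mRNA level and not its translation.

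The first bases of the mRNAs are shown because the tract is a known trait of this family and was not used to select the genes. The RefSeq table of gene starts (GRCh38.p14) had an entry for 41 of the 46 genes, and RPL7, RPL8, RPL30, RPL37 and RPS15A are named only. A tract, taken as a C at the annotated start followed by at least 4 letters that are C or T, stood at the start of 30 of the 41 genes (73.2%), against 1404 of the 27305 genes of the table (5.14%). The windows below run from 10 bases before the annotated start to 20 bases from it, 5′ to 3′, with the tract in capitals. The first set holds the genes that were lower after sorafenib in at least one line.
RPL32: acgacccatcagcccttgcgcgccaccgtc
RPS26: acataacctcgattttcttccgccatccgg
RPLP1: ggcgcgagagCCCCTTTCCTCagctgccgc
RPL41: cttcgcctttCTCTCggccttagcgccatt
RPL12: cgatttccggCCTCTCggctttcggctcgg
RPS4X: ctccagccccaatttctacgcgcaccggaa
These lie at chr3:12841546-12841575 (minus strand) for RPL32, chr12:56041908-56041937 (plus) for RPS26, chr15:69452808-69452837 (plus) for RPLP1, chr12:56116623-56116652 (plus) for RPL41, chr9:127451387-127451416 (minus) for RPL12 and chrX:72277229-72277258 (minus) for RPS4X. For RPL32 the table lists 3 starts and none of them begins with the tract, and the first listed is shown. Tracts stood at the start of 3 of these 6 genes and of 27 of the other 35 with an entry. For comparison, 4 genes whose level did not pass the test in either line are shown.
RPL11: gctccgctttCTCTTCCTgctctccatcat
RPS6: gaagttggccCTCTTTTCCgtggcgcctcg
RPS24: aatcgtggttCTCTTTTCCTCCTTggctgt
RPL39: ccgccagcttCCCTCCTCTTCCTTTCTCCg
These lie at chr1:23691796-23691825 (plus), chr9:19380217-19380246 (minus), chr10:78033853-78033882 (plus) and chrX:119791611-119791640 (minus). The tract was 8, 9, 14 and 19 bases long in these genes, and 11, 5 and 6 bases in RPLP1, RPL41 and RPL12. These lengths do not compare the sets, because the 4 genes were picked after their values were seen. They include RPL39, with the longest tract of the 41 genes. Of other genes called in neither line, RPL14, RPL36, RPL37A and RPS25 had tracts of 6 bases, and RPL27 and RPS15 had none at the start. An annotated start can lie a few bases from the one a cell uses, so an absent tract says only that these letters do not begin there. A tract that began within 20 bases of the start was found for 39 of the 41 genes (95.1%) and for 56.0% of all genes of the table.

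Of short motifs searched on both strands in the 300 bases around each start (250 before and 50 after), CCGGAA was present for 23 of the 41 genes (56.1%), against 20.1% of all genes of the table, and for 4 of the 6 genes that were lower. CCAAT was present for 14 of the 41 (34.1%, against 39.7%) and for 4 of these 6. GGGCGG was found for 56.1% and 48.3%, GCCATC for 31.7% and 15.4%, TATAAA for 4.88% and 14.0%, and CACGTG for 7.32% and 8.77%. Among the 6 genes that were lower, GGGCGG was present for 3, GCCATC for 2, and TATAAA and CACGTG for 0. A match is a description of the letters and not a binding site.

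The array signal of a small group of ribosomal protein genes was lower after sorafenib, and no call was made in the opposite direction. In Huh7, RPL32, RPS26, RPLP1 and RPL41 fell, by 1.70-fold to 2.1-fold. In shRb the same 4 genes fell, and RPL12 and RPS4X fell as well, by 1.5-fold to 2.41-fold over all 6. A gene was called when its p-value from limma, adjusted by Benjamini-Hochberg over all 53617 clusters, was below 0.05. In Huh7, 4 of the 46 genes were thus called lower (8.7%) and 0 higher, against 1.26% of all clusters lower and 0.776% higher, and 0.893% and 1% of the genes with a cluster of their own. At an unadjusted p below 0.05, 11 were lower and 1 was higher, against 1511 lower and 1511 higher of all 22392 genes. The count in Huh7 was 0 with the Huh7 arrays alone in the fit, 0 by the methods' t-test, and 0 without Huh7 control 1, Huh7 control 3 or Huh7 sorafenib 6 (2 without Huh7 sorafenib 5). In shRb, 6 of the 46 were called lower (13%) and 0 higher, against 3.09% and 2.3% of all clusters and 3.74% and 2.96% of the genes with a cluster of their own. At an unadjusted p below 0.05, 8 were lower and 0 were higher there, against 2470 and 2036 of all 22392 genes. The count in shRb was 0 by the methods' t-test, and 4 to 6 with each array left out in turn.

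Over the whole family the median and the mean differed. The median log2 change over the 46 genes was 0.01 in Huh7, where the median over all genes was 0.02, and -0.07 in shRb, where it was 0.00. The mean was -0.12 in Huh7 and -0.17 in shRb, against 0.01 and -0.00 over all genes, and -0.01 and -0.05 over the 40 genes called in neither line. In Huh7, 25 genes had a value above 0 and 21 below, and in shRb 15 and 31. Over all 22392 genes these counts were 12093 and 10299 in Huh7, and 11362 and 11030 in shRb. The 95% interval of the change lay within 1.5-fold of no change for 32 genes in Huh7 and for 37 in shRb, against 14149 and 16556 of all 22392 genes. Both treated Huh7 arrays lay below both controls for 17 of the 46 genes, against 21.8% of all genes, and above them for 14, against 26%. All 3 treated shRb arrays lay below the 3 controls for 11, against 13.5%, and above them for 3, against 12%. RMA normalization evens out the distributions of the arrays and would hide a change in total RNA, and fewer cells and less RNA per cell cannot be told apart.

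**Figure D1:**
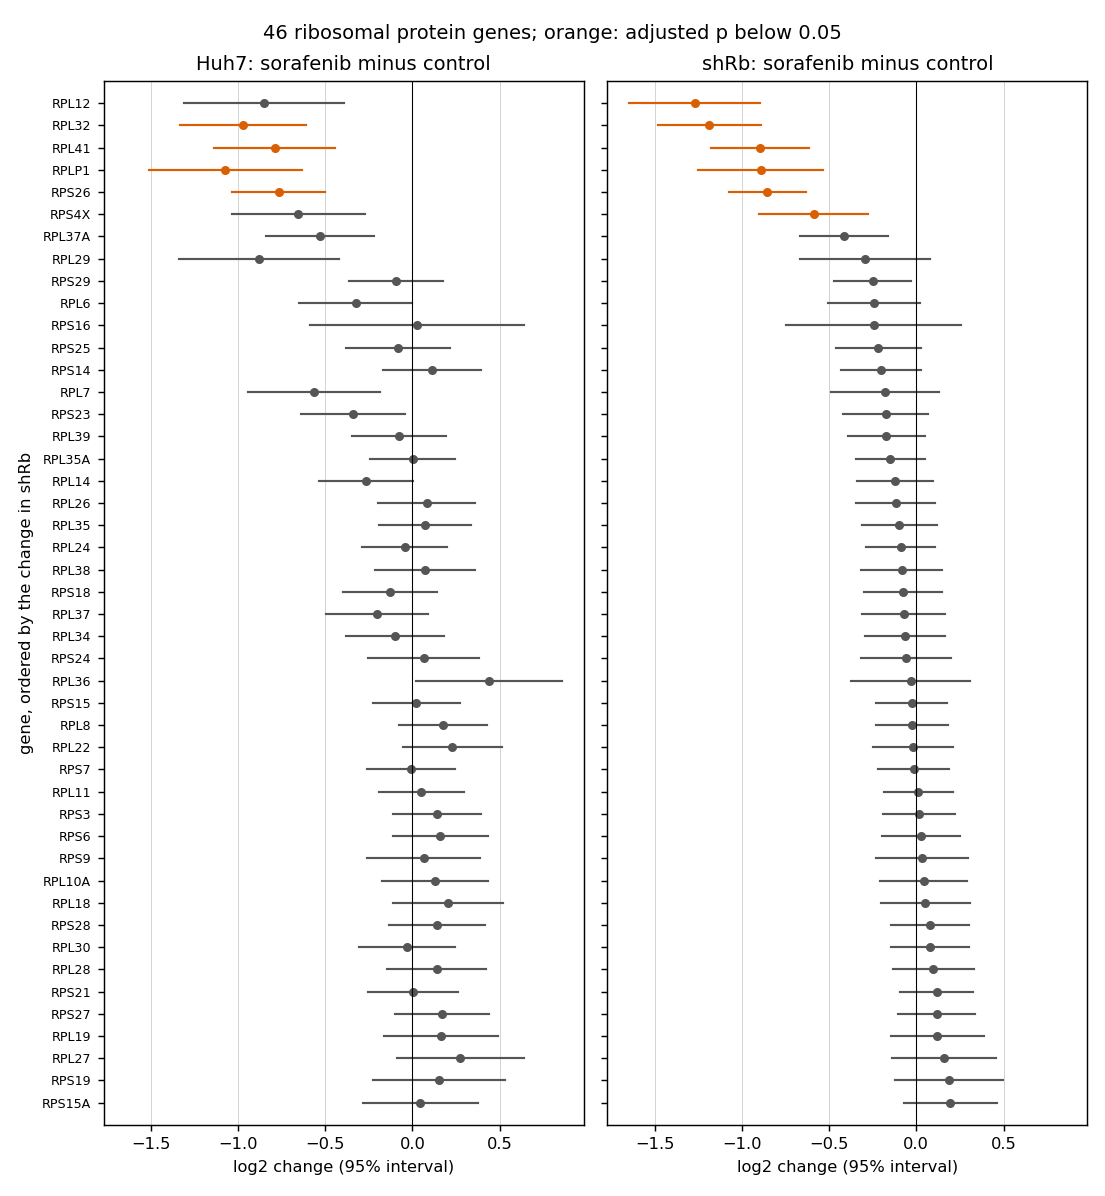
Log2 change of each of the 46 genes after sorafenib (x axis, dots) with its 95% interval from limma (lines), in Huh7 (left, 2 arrays against 2) and shRb (right, 3 against 3), genes ordered by the change in shRb. The orange genes, 4 in Huh7 and 6 in shRb, were called lower, and the intervals of most others span 0.

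The mean of the 6 genes called in either line separated treated from untreated arrays, as their choice by this contrast fixes. It was 6.99 to 7.13 on the 5 untreated arrays and 5.97 to 6.29 on the 5 treated arrays. The mean of all 46 genes was 7.20 to 7.28 on the untreated and 7.05 to 7.15 on the treated arrays. Over the other 40 genes the mean was 7.19 to 7.30 on all 10 arrays. The 6 genes did not stand at one end of the family in signal. Their means over the 10 arrays were 5.91 to 7.30, a range that held 22 of the 46 genes.

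RPL32, a protein of the large subunit, had the smallest p of the family in shRb. Its log2 values were 6.91 and 6.83 in untreated Huh7 and 5.95 and 5.86 after sorafenib, and 6.62, 6.95 and 6.78 in untreated shRb and 5.85, 5.46 and 5.48 after sorafenib. Every treated array lay below every untreated array. The level fell 1.96-fold in Huh7 (log2 change -0.97, SE 0.16, adjusted p = 0.0172 from limma, n = 2 per group) and 2.28-fold in shRb (-1.19, SE 0.13, adjusted p = 0.00112, n = 3 per group). With each of the 10 arrays left out in turn, the adjusted p ranged from 0.00129 to 0.00690 in shRb and from 0.00985 to 0.126 in Huh7, where leaving out any of the 4 Huh7 arrays ended the call.

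RPS26, a small-subunit protein near the channel through which mRNA leaves and one of the genes mutated in Diamond-Blackfan anaemia, had log2 values of 6.45 and 6.36 in untreated Huh7 and 5.58 and 5.70 after sorafenib. In shRb they were 6.29, 6.36 and 6.15 untreated and 5.39, 5.49 and 5.36 after sorafenib. The treated values lay below all untreated values in both lines. RPS26 fell 1.70-fold in Huh7 (-0.77, SE 0.12, adjusted p = 0.0134 from limma) and 1.81-fold in shRb (-0.85, SE 0.10, adjusted p = 0.00132). Without any one of the 4 Huh7 arrays its call in Huh7 was lost (adjusted p up to 0.102), whereas in shRb the highest adjusted p over the 10 arrays left out was 0.00904.

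RPLP1 encodes an acidic protein of the stalk of the large subunit, which recruits elongation factors. It fell 2.1-fold in Huh7 (-1.07, SE 0.20, adjusted p = 0.0260 from limma), from 7.07 and 7.44 to 6.37 and 5.99. In shRb it fell 1.86-fold (-0.89, SE 0.16, adjusted p = 0.0120), from 7.22, 7.03 and 6.93 to 6.41, 6.02 and 6.07. Treated and untreated arrays did not overlap in either line. Leaving out shRb control replicate 7 ended the call in shRb (adjusted p = 0.0523), and leaving out Huh7 control 1, Huh7 control 3 or Huh7 sorafenib 6 ended it in Huh7 (up to 0.185).

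RPL41, the smallest ribosomal protein, is a short basic peptide at the contact of the subunits. Its log2 values were 7.77 and 7.91 in untreated Huh7 and 7.12 and 6.97 after sorafenib, a 1.73-fold fall (-0.79, SE 0.15, adjusted p = 0.0335 from limma). They were 7.72, 7.49 and 7.77 in untreated shRb and 6.56, 6.80 and 6.92 after sorafenib, a 1.86-fold fall (-0.90, SE 0.13, adjusted p = 0.00364). No treated value reached an untreated one. The call in shRb held without any one array (adjusted p up to 0.0202), and that in Huh7 was lost without any of the 4 Huh7 arrays, shRb control 7 or shRb control 9 (up to 0.208).

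RPL12, which binds ribosomal RNA at the base of the stalk, had the largest change of the family in shRb. There its values fell from 6.96, 6.98 and 7.04 to 5.78, 6.05 and 5.34, which is 2.41-fold (-1.27, SE 0.17, adjusted p = 0.00268 from limma, up to 0.0144 with each array left out). In Huh7 they were 6.54 and 6.79 untreated and 5.71 and 5.92 after sorafenib (-0.85, SE 0.21, adjusted p = 0.0764), so the groups did not overlap but the change did not pass the test. The difference between the effects of the lines was -0.42 (95% interval -1.01 to 0.17, adjusted p = 0.794).

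RPS4X, the X-linked copy of a small-subunit protein, was the weakest call. Its log2 values went from 7.37, 7.11 and 7.48 to 6.65, 6.88 and 6.66 in shRb, a 1.5-fold fall (-0.59, SE 0.14, adjusted p = 0.0402 from limma). In Huh7 they were 7.78 and 7.42 untreated and 7.02 and 6.86 after sorafenib (-0.65, SE 0.17, adjusted p = 0.0985). The change in Huh7 was of similar size and missed the threshold. In shRb the call was lost with 6 of the 10 arrays left out in turn (Huh7 sorafenib 5 and 6, shRb control 7 and 9, shRb sorafenib 10 and 12, adjusted p up to 0.136).

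**Figure D2:**
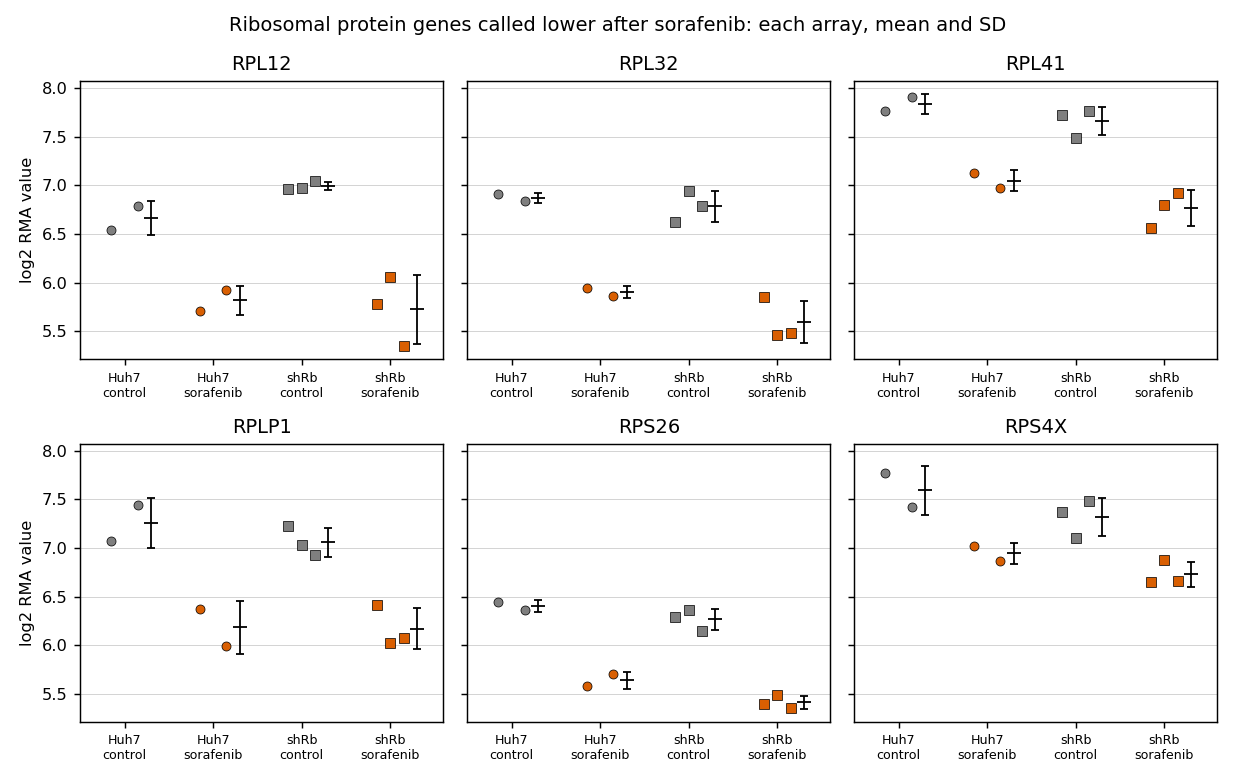
Log2 RMA value (y axis) of the 6 genes called lower after sorafenib in at least one line, on each array (dots for Huh7, squares for shRb, grey for untreated and orange for sorafenib), with the mean and SD of each group beside its points. In both lines every orange point lies below every grey point of the same line for all 6 genes.

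A pair of large-subunit genes lay just outside the threshold. RPL29, which encodes a heparin-binding protein, had values of 6.72 and 6.63 in untreated Huh7 and 6.07 and 5.52 after sorafenib (-0.88, SE 0.20, adjusted p = 0.0676 from limma), and 6.47, 6.40 and 6.72 against 5.99, 6.29 and 6.42 in shRb (-0.29, SE 0.17, adjusted p = 0.436). The groups overlapped in shRb only, and the difference between the lines, 0.58 (95% interval -0.01 to 1.18), had an adjusted p of 0.679. RPL37A, a zinc-binding protein, had values of 5.73 and 5.59 against 5.18 and 5.08 in Huh7 (-0.53, SE 0.14, adjusted p = 0.101). In shRb they were 5.51, 5.55 and 5.62 against 5.35, 5.00 and 5.08 (-0.42, SE 0.11, adjusted p = 0.0690).

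Calls were made in both subunits. Of the 27 large-subunit genes, 3 were called lower in Huh7 and 4 in shRb, and of the 19 small-subunit genes, 1 and 2. The median log2 change was -0.03 and -0.09 for the large subunit and 0.03 and -0.03 for the small subunit, in Huh7 and shRb. Of a list of genes mutated in Diamond-Blackfan anaemia, which does not hold all such genes, 8 were measured (RPL11, RPL26, RPL35A, RPS7, RPS19, RPS24, RPS26 and RPS29), and RPS26 was the one called. RPS19, the gene most often mutated in that disease, had log2 values of 8.94 and 9.04 in untreated Huh7 against 9.07 and 9.21 after sorafenib (0.15, adjusted p = 0.798), and 9.01, 9.29 and 9.06 against 9.59, 9.23 and 9.11 in shRb (0.19, adjusted p = 0.580).

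Another 4 genes did not pass the test in either line. RPL11, which with RPL5 and the smallest ribosomal RNA binds MDM2 and so holds back the degradation of p53, had log2 values of 8.85 and 8.86 in untreated Huh7 and 8.95 and 8.87 after sorafenib. In shRb its 6 values lay between 8.84 and 8.97, and the changes were 0.05 (95% interval -0.19 to 0.29, adjusted p = 0.912 from limma) and 0.01 (-0.19 to 0.21, adjusted p = 0.973). RPS6, the small-subunit protein that S6 kinases phosphorylate downstream of mTOR, changed by 0.16 in Huh7 and 0.03 in shRb (adjusted p = 0.673 and 0.940). RPL39, at the exit tunnel for the new protein chain, changed by -0.08 and -0.17 (adjusted p = 0.868 and 0.444). RPS14, of the chromosome region lost in a form of myelodysplastic syndrome, changed by 0.11 and -0.20 (adjusted p = 0.801 and 0.373).

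The largest values above 0 were small and did not pass the test. In Huh7 they were those of RPL36 (0.44, SE 0.19, adjusted p = 0.354 from limma), with values of 7.21 and 7.19 untreated and 7.53 and 7.75 after sorafenib, RPL27 (0.28, adjusted p = 0.557) and RPL22 (0.23, adjusted p = 0.512). The RPL22 cluster had a mean of 3.54, close to the median of all clusters, so its values may be background. In shRb the largest were RPS15A (0.20, adjusted p = 0.480), RPS19 and RPL27 (0.16, adjusted p = 0.635). RPL7, also dim, had a mean of 4.17 and changed by -0.57 in Huh7 and -0.18 in shRb (adjusted p = 0.156 and 0.601).

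The choice of cluster mattered for RPS27 and RPS28, small-subunit genes with 2 clusters each. For RPS28 the brighter cluster (16729548) had values of 11.48 and 11.47 in untreated Huh7 and 11.50 and 11.73 after sorafenib, and 11.51, 11.50 and 11.49 in untreated shRb and 11.45, 11.64 and 11.65 after sorafenib. These values hardly moved (0.14 in Huh7 and 0.08 in shRb, adjusted p = 0.733 and 0.790 from limma). The dimmer cluster (16857878) had values of 5.63 and 5.59 against 5.41 and 5.53 in Huh7 (-0.14, adjusted p = 0.873), and fell in shRb from 6.06, 5.70 and 5.67 to 5.39, 4.65 and 4.90 (-0.83, SE 0.18, adjusted p = 0.0306). This call was lost without either Huh7 control, any of the 3 shRb controls, shRb sorafenib 11 or shRb sorafenib 12, with adjusted p from 0.00693 to 0.110 over the 10 arrays left out.

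For RPS27, a zinc-finger protein, the brighter cluster (16760068) lay between 11.26 and 11.59 on the 10 arrays and changed by 0.17 and 0.12 (adjusted p = 0.639 and 0.635 from limma). The dimmer one (16671325) had values of 6.71 and 6.64 against 6.51 and 6.58 in Huh7 (-0.13, adjusted p = 0.831), and 6.59, 6.56 and 6.41 against 6.06, 6.31 and 5.75 in shRb (-0.48, SE 0.14, adjusted p = 0.0851). In both lines the clusters of a gene thus had changes of opposite sign, 3 of the 4 pairs without a call in either cluster.

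Cluster numbers of this array run along the chromosomes, which allowed the position of each cluster to be checked against its gene. For 44 of the 46 genes most of the 20 nearest clusters with a single gene name were on the chromosome of the gene. RPS27 lies on chromosome 1 and RPS28 on chromosome 19 in RefSeq, but all 20 neighbours of the brighter RPS27 cluster lay on chromosome 12 and all 20 of the brighter RPS28 cluster on chromosome 11. All 20 neighbours of each dimmer cluster lay on the chromosome of its gene. With the dimmer clusters in place of the brighter, 7 of the 46 genes were lower in shRb and 4 in Huh7, and the medians were -0.09 and 0.00. RPS18, the third gene with several clusters, had 7, all with neighbours on its own chromosome 6, of which 4 share every value, and none of them was called in either line.

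**Figure D3:**
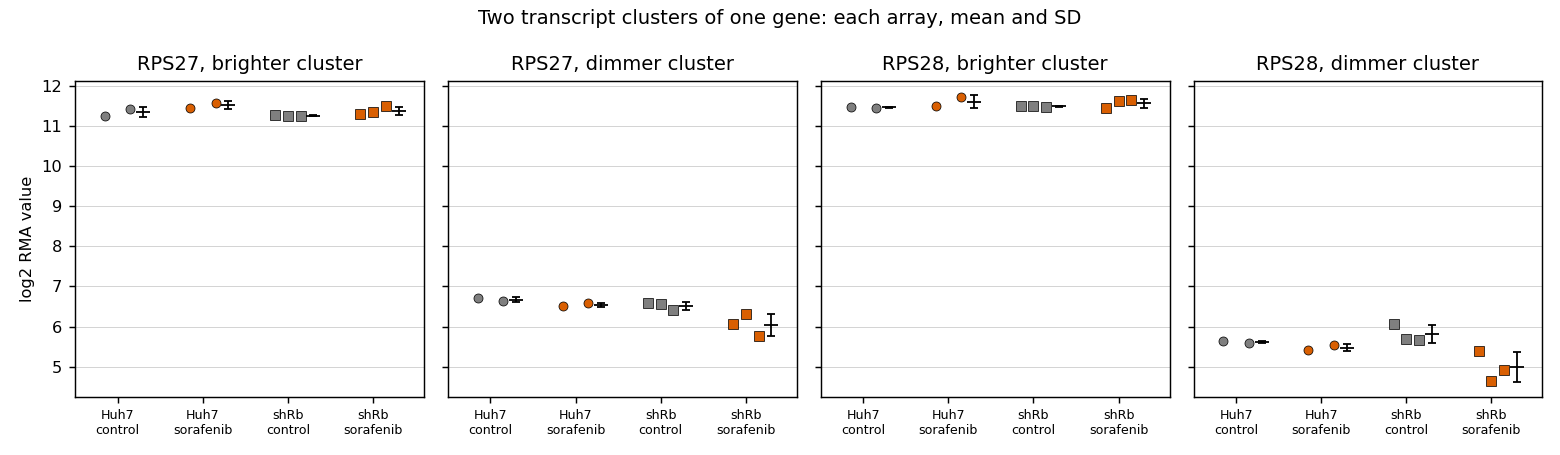
Log2 RMA value (y axis) of both clusters of RPS27 and RPS28 on each array (dots for Huh7, squares for shRb, grey for untreated and orange for sorafenib), with the mean and SD of each group. The brighter clusters stay near 11.3 to 11.7, and in shRb the orange squares of both dimmer clusters lie below the grey ones.

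Ribosomal protein genes have many processed pseudogenes, and signal from such copies cannot be told apart from that of the gene where probes are shared. RefSeq lists 7 to 59 pseudogenes by symbol for the 6 genes called (median 30) and 4 to 61 for the others (median 13), with 59 for RPS26, 50 for RPL12, 37 for RPL32, 23 for RPS4X, 13 for RPLP1 and 7 for RPL41. Spearman's rho between this number and the log2 change over the 46 genes was -0.31 in Huh7 and -0.29 in shRb, given as a description over genes that share arrays. The probes behind each cluster were not used here, so the part of these copies was not tested. The 38 clusters that name a ribosomal protein gene beside other genes gave 2 lower (5.26%) and 0 higher calls in each line. Of all clusters, 1.26% were called lower in Huh7 and 3.09% in shRb. The median log2 change of the 38 was 0.02 in Huh7 and -0.01 in shRb.

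Introns of ribosomal protein genes often hold small nucleolar RNAs. In RefSeq, 7 of the 46 genes hold one within their span (RPL12 with SNORA65, RPL32 with SNORA7A, RPL28, RPL30, RPL37, RPL39 and RPS3), the strand not being given. Of these 7 genes, 1 was called lower in Huh7 and 2 in shRb, and of the 39 without one, 3 and 4. The genes called are spread over the genome, on chromosomes 3 (RPL32), 9 (RPL12), 15 (RPLP1) and X (RPS4X), with both RPL41 and RPS26 on chromosome 12.

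The log2 changes of the family ran in parallel in both lines, and the change in each line used no array of the other. The 4 genes called in Huh7 were all called in shRb, that is 100% of the Huh7 calls and 66.7% of the shRb calls. These calls are not independent between the lines, because a joint fit took the variance of each gene from the arrays of both. With the arrays of each line alone in the fit, 0 of the 46 genes were called lower in Huh7 and 5 in shRb. Over the 46 genes the log2 changes had a Pearson's r of 0.864 and a Spearman's rho of 0.772, and 34 had the same sign. Over the 40 genes called in neither line r was 0.665, and over all genes with a cluster of their own it was 0.509. These describe genes, which are not independent replicates. The difference in the effect of sorafenib between the lines (shRb minus Huh7) did not pass the test for any of the 46 genes. Of all clusters, 0.00933% passed it with a higher and 0.0392% with a lower value. Of all 22392 genes, 1982 had an unadjusted p below 0.05, and 0 of the 46 did. The smallest adjusted p of the 46 was 0.679 (RPL29). The interval of that difference was -0.68 to 0.25 for RPL32, -0.43 to 0.26 for RPS26, -0.39 to 0.75 for RPLP1, -0.55 to 0.34 for RPL41 and -0.43 to 0.56 for RPS4X, so differences within these bounds could not be seen.

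**Figure D4:**
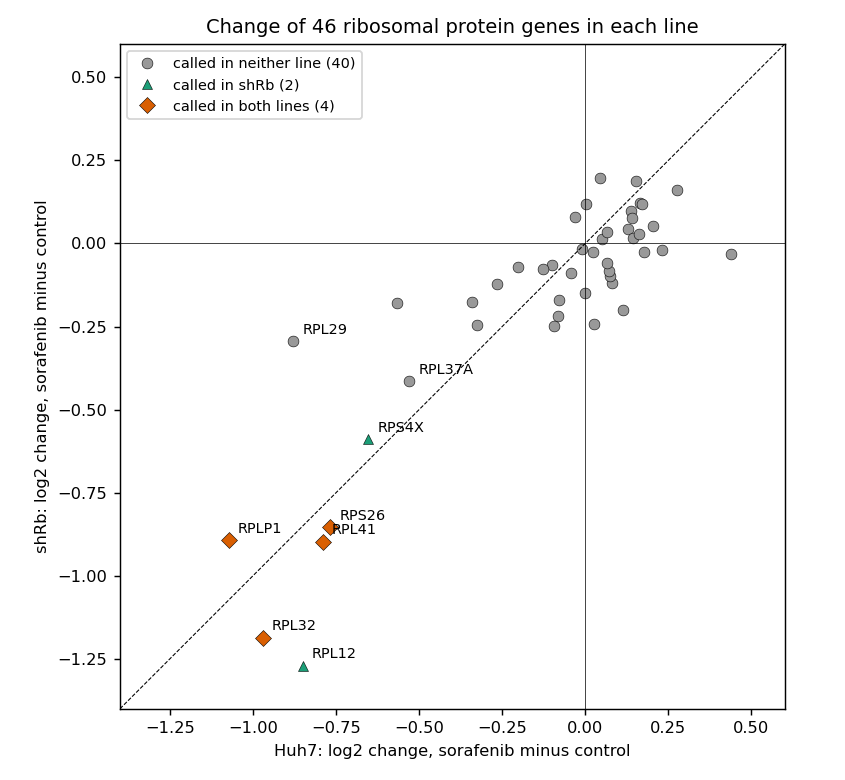
Log2 change after sorafenib of each of the 46 genes in Huh7 (x axis) and shRb (y axis), with the dashed line marking equal change; diamonds were called lower in both lines (4 genes), triangles in shRb (2) and grey dots in neither (40). The called genes lie at the lower left, apart from the cloud around 0, with RPL12 (-0.85 in Huh7 and -1.27 in shRb) the farthest of them from the dashed line. RPL37A lies between, and RPL29 (-0.88 in Huh7 and -0.29 in shRb) lies farthest from the line of all 46.

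Between the lines, no gene of the family passed the test in either condition. These comparisons use the same arrays as those above. In untreated cells 0 of the 46 were called, against 0.647% of all clusters higher and 0.371% lower in shRb. Of all 22392 genes, 2948 had an unadjusted p below 0.05, and 1 of the 46 did. That gene, RPS15A, had log2 values of 6.42 and 6.85 in Huh7 and 6.16, 6.19 and 6.26 in shRb (-0.43, SE 0.13, adjusted p = 0.247 from limma). The median difference over the 46 genes was -0.05, and 0.01 over all genes.

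After sorafenib 0 were called as well, against 1.29% of all clusters higher and 0.99% lower. Of all 22392 genes, 4039 had an unadjusted p below 0.05, and 3 of the 46 did. The smallest adjusted p was that of RPS25, at 7.45 and 7.44 in treated Huh7 and 7.17, 7.19 and 6.98 in treated shRb (-0.33, SE 0.12, adjusted p = 0.247 from limma). The median difference was -0.10 (-0.01 over all genes), and 35 of the 46 genes had a value below 0, against 11810 of all 22392. RPL32 and RPS26 differed by -0.30 and -0.23 on the log2 scale between treated shRb and treated Huh7 (adjusted p = 0.406 and 0.401).

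Related genes were looked at in short lists. Of all genes, 0.893% in Huh7 and 3.74% in shRb were called lower, so at that share such lists would hold few calls or none. Whether the falls are particular to the family was therefore not tested. The 8 paralogs outside the family, among them RPL22L1, RPL39L and RPS27L, gave 0 calls in both lines, with RPL7L1 the lowest (-0.43 in Huh7 and -0.44 in shRb, adjusted p = 0.189 and 0.0520 from limma). FAU, which encodes a small-subunit protein as a fusion with a ubiquitin-like protein, changed by 0.22 and -0.14 (adjusted p = 0.557 and 0.585). Of 15 other genes whose mRNAs carry the pyrimidine tract, 10 were measured and 0 were called, each by its brightest cluster. The lowest value in Huh7 was that of HNRNPA1, an RNA-binding protein (-0.46, adjusted p = 0.0979), which was at -0.13 in shRb (adjusted p = 0.584), and the highest in shRb that of TPT1 (0.34, adjusted p = 0.170). A dimmer cluster of EEF1D, an elongation factor subunit, was lower in shRb (-0.47, adjusted p = 0.0493), which held without shRb sorafenib 12 (0.0467) and was lost without any other array (up to 0.169), and its brighter cluster was at 0.16 (adjusted p = 0.671). EEF2, the elongation factor that moves the ribosome along, changed by 0.26 and 0.09 (adjusted p = 0.428 and 0.746), and PABPC1, the poly(A)-binding protein, by -0.01 and 0.04 (adjusted p = 0.987 and 0.913).

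Proteins of the mitochondrial ribosome, the other ribosome of the cell, are encoded by a separate family, of which 71 genes were measured. In Huh7, 3 were lower (4.23%, against 0.893% of all genes) and 0 higher. They were MRPS17 (-0.69, adjusted p = 0.0293 from limma), MRPL51 (-0.58, adjusted p = 0.0457) and MRPL50 (-0.76, adjusted p = 0.0490). In shRb, 3 were lower (4.23%) and 0 higher, a share lower that was close to the 3.74% of all genes. They were MRPS7 (-0.50, adjusted p = 0.00983), MRPS25 (-0.79, adjusted p = 0.0122) and MRPS17 (-0.53, adjusted p = 0.0187). MRPS17 had values of 7.27 and 7.22 against 6.43 and 6.68 in Huh7, and 6.99, 7.03 and 6.89 against 6.55, 6.41 and 6.35 in shRb. The median over the 71 genes was -0.04 in Huh7 and -0.01 in shRb. Quantile normalization, median centring and cyclic loess each ended the call of MRPL51, and median centring that of MRPL50. MRPS7 held without any one array (adjusted p up to 0.0477). Any Huh7 array left out ended each of the 3 Huh7 calls, as did shRb control 7, and for MRPL51 and MRPL50 also shRb control 8, shRb control 9 and shRb sorafenib 11, and for MRPL51 shRb sorafenib 10 (up to 0.168, 0.259 and 0.224 for MRPS17, MRPL51 and MRPL50). In shRb MRPS25 was lost without shRb control 7 or 8 (up to 0.0531), and MRPS17 without these or shRb sorafenib 11 or 12 (up to 0.0777). After sorafenib MRPL2 (-0.74, adjusted p = 0.0214) and MRPL9 (-0.56, adjusted p = 0.0220) were lower in shRb than in Huh7, and both were lost without either treated Huh7 array, MRPL2 also without shRb sorafenib 10 and MRPL9 without shRb sorafenib 11 or 12 (up to 0.173 and 0.175).

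Of 9 genes listed as chaperones that bind ribosomal proteins before assembly, 1 was called. That is 11.1% in shRb, against 3.74% of all genes lower. GRWD1, which accompanies RPL3, fell 1.77-fold in shRb, from 8.51, 8.64 and 8.59 to 7.77, 7.86 and 7.64 (-0.82, SE 0.10, adjusted p = 0.00140 from limma). In Huh7 it went from 8.67 and 8.62 to 8.14 and 8.21 (-0.47, SE 0.12, adjusted p = 0.0832). Treated and untreated arrays did not overlap in either line.

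Among 15 genes of mTOR signalling and of the control of these mRNAs, the largest changes were rises of DDIT4 and SESN2. Both act on mTOR complex 1. In Huh7, 2 of the 15 were called higher (13.3%, against 1% of all genes) and 0 lower. Calls went both ways in shRb, where 2 of the 15 were higher and 2 lower (13.3% each, against 2.96% and 3.74% of all genes). DDIT4, which is induced by stress and restrains mTOR complex 1, rose 5.65-fold in Huh7, from 4.76 and 4.05 to 6.84 and 6.97 (2.50, SE 0.22, adjusted p = 0.00111 from limma). It rose 4.32-fold in shRb, from 4.58, 4.75 and 4.77 to 6.64, 7.06 and 6.73 (2.11, SE 0.18, adjusted p = 3.28e-04). SESN2, a sestrin that restrains the complex when leucine is scarce, rose 2.26-fold in Huh7 (1.18, adjusted p = 0.0107, up to 0.0812 and lost without any of the 4 Huh7 arrays) and 1.85-fold in shRb (0.89, adjusted p = 0.00636). In shRb AKT1S1 (-0.76, adjusted p = 0.00147) and RPTOR (-0.57, adjusted p = 0.0231), both components of the complex, were lower, the latter not without shRb control 7 or 8 or shRb sorafenib 10 or 11 (adjusted p up to 0.0920). AKT1S1 was at -0.27 and RPTOR at 0.10 in Huh7 (adjusted p = 0.331 and 0.861), and the difference in the effect of sorafenib between the lines did not pass the test for any of the 15 (for AKT1S1 -0.49, adjusted p = 0.383). After sorafenib AKT1S1 was lower in shRb, at 5.65, 5.78 and 5.80, than in Huh7, at 6.37 and 6.44 (-0.66, SE 0.10, adjusted p = 0.00983), and this was lost without either treated Huh7 array (up to 0.0971). LARP1, which binds the tract, changed by -0.08 in each line (adjusted p = 0.866 and 0.786), and MTOR by 0.15 and 0.08 (adjusted p = 0.728 and 0.797).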

How the data were processed

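Total RNA from 10 samples was hybridised to Affymetrix arrays by the authors and normalized by RMA-sketch in Expression Console. Version, annotation and build are not given in the sources used here. The authors deposited log2 values, which were used unaltered. Groups were taken from the labels. Of the clusters, 23866 name 1 gene symbol, 1852 name several and 27899 none, from a table of the platform's probes.

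A model of 4 group means was fitted with limma 3.58.1 (R 4.3.3) to the 10 arrays together, which leaves 6 residual degrees of freedom, and was tested on simulated data. Contrasts were sorafenib against control in each line, the difference of these effects, and shRb against Huh7 with and without sorafenib. Adjustment was by Benjamini-Hochberg over 53617 clusters, with a threshold of 0.05. The authors analysed the arrays in TAC software at default settings and name Student's test for experiments on cells. That test, here the methods' t-test, was run as an alternative, beside other normalizations, filters and variance models, a replicate block and leaving out each array. Genes, lists and tests were chosen with earlier results of these data known. Named were genes called, filled to 6 by p in each contrast, the 3 largest changes each way, genes fixed by role (the genes of related lists by p, up to 4), and RB1. The genes RPL7, RPS14 and those of related lists that did not pass were chosen after their values were seen, as were the sequences printed. SnoRNA genes were taken by position, whatever their strand. No test was made over the family. The number of arrays limits the precision.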

Additional observations from a re-analysis of the deposited data

How the results depend on the processing

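The Huh7 calls rest on few arrays. The count of ribosomal protein genes lower in Huh7, 4 with all arrays, ranged from 0 to 5 with each array left out in turn: it was 0 without Huh7 control 1, Huh7 control 3 or Huh7 sorafenib 6 and 2 without Huh7 sorafenib 5. It was also 0 with only the Huh7 arrays in the fit and 0 by the methods' t-test, which the paper names for experiments on cells and not for the arrays. In shRb the count of 6 ranged from 4 to 6 with each array left out, was 5 with the shRb arrays alone and 0 by the methods' t-test. At an unadjusted p below 0.05 the methods' t-test gave 9 genes in Huh7 and 10 in shRb, and after adjustment 0 and 141 of all clusters. Where an array was left out of a group of 2, the lone array was assumed to vary like the other groups.

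The replicate numbers do not pair the shRb samples: the deviations of same-numbered arrays correlated at -0.15, -0.16 and -0.05. With the replicate block, 4 genes were lower in shRb, RPL41 and RPS4X no longer passing.

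Quantile normalization, median centring and a trended, robust variance left 4 genes lower in Huh7 and 6 in shRb. Cyclic loess gave 4 and 5, clusters brighter than the median 6 and 7, clusters with 1 symbol 6 and 7, and the mean of all clusters of a gene 4 and 6. Added after the data were seen, genes with a mean of at least 5 gave 4 and 6. Each median change moved by less than 0.05, the SD of the median between replicates, under the settings run. Over named genes and planned settings, 1194 of 1319 values kept their side of the threshold and direction or had no call, 118 lost it, 7 passed it and 0 reversed, and 10 without a call changed sign.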
